A study of Rattus norvegicus with 2 samples.

Results

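The microRNAs miR-219 and miR-338 were followed in small RNA libraries of the rat hippocampus after status epilepticus (SE), a prolonged seizure state. All rows of the deposited table named miR-219 or miR-338, with any copy or arm, were taken by name alone, which gave 5 of 390 miRNAs, namely rno-miR-219-2-3p, rno-miR-219-5p, rno-miR-219-1-3p, rno-miR-338-3p and rno-miR-338-5p. The table held 328 known rat miRNAs, these 5 among them, and 62 miRNAs predicted from the reads. Both groups were Wistar rats, labelled as 5 months old and described as male, with electrodes implanted toward the right amygdala. In the Experimental group SE was set off through the lateral amygdala nucleus, with 20 min of stimulation by the labels, and hippocampal RNA was taken 24 hours later. The Control group carried the same electrodes and was only sham stimulated. RNA came from the left hippocampus, opposite to the electrode, and was pooled within each group, so that there was 1 library per group. The number of rats in a pool is not given in the sources used here. No difference between the libraries therefore has a replicate check, and each p-value compares these libraries and not the conditions.

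MiR-219 and miR-338 are enriched in oligodendrocytes, the myelin-forming glia of the central nervous system, and are induced as their precursor cells mature. They promote this maturation by repressing regulators that keep precursors dividing or undifferentiated, among them Pdgfra, Sox6 and Hes5. MiR-219 has also been described in neurons, downstream of NMDA receptors. A miRNA hairpin yields a duplex of a 5p and a 3p arm, of which usually 1 strand is kept by Argonaute while its partner is mostly degraded. The table counts miRNAs only, so protein-coding markers of oligodendrocytes were not analysed here and the cell type could not be checked against them.

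The mature sequences show what was counted and whether members have a seed in common. They were taken from RefSeq (GRCr8), where all 5 members matched an entry and miR-219 is called miR-219a. Capitals mark the seed, bases 2 to 8, which leads target pairing.

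miR-219-2-3p: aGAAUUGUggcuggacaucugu

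miR-219-1-3p: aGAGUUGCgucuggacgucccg

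miR-219-5p: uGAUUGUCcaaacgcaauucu

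miR-338-3p: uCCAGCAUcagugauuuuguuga

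miR-338-5p: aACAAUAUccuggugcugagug

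The 5 seeds all differed, and none was found in another of the 693 mature rat miRNA names of the RefSeq table. Lengths ran from 21 to 23 bases. GC content was 38.1% in miR-219-5p, 39.1% in miR-338-3p, 45.5% in miR-219-2-3p and miR-338-5p and 63.6% in miR-219-1-3p.

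The hairpins show which counts can be given to a precursor. Capitals mark the 5p arm and then the 3p arm.

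Mir219-2: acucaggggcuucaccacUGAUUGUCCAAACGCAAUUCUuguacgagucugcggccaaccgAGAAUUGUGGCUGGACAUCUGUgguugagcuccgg

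Mir219a1: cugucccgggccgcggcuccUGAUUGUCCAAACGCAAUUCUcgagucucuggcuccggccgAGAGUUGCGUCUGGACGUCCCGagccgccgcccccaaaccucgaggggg

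Mir338: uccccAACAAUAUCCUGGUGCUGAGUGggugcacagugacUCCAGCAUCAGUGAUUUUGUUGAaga

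The 5p arm of miR-219 is the same in both of its hairpins, so reads of miR-219-5p cannot be assigned to a copy. The 3p arms of the copies differ at 7 of 22 positions. Counted from 1 at the 5′ end of miR-219-1-3p, the changes to miR-219-2-3p are G4A, C8U, U10G, G17A, C20U, C21G and G22U, of which 2 lie in the seed. Only the 3p arms thus tell the copies apart. In the GRCr8 annotation Mir338 overlaps Aatk, on the same strand. Mir219-2 overlaps the lncRNA LOC120101515, on the same strand, and Cercam, on the other. Mir219a1 overlaps no other annotated gene. MiR-3065 and miR-219b, from hairpins on the opposite strand of Mir338 and Mir219-2, were not analysed here.

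Levels are given as counts and as counts per 1000000 clean reads (CPM), where 1 count was worth 0.138 CPM in the Experimental library and 0.114 CPM in the control library. The counts of the table summed to 5678090 and 6703056. A read spans a whole mature miRNA, so levels of different miRNAs were compared without division by length. Differences between sequences in adaptor ligation and PCR were not corrected for. Ratios and shares between different miRNAs are therefore those of counts, and may differ from those of molecules in the tissue. Intervals (CI) are 95% exact intervals and cover counting error only.

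MiR-219-2-3p was the most abundant member by far, with 10795 control counts and 9389 counts after SE. In the Experimental and the Control group its level was 1297 CPM (95% CI 1270 to 1323) and 1236 CPM (1212 to 1259), and it ranked 23rd and 19th among the 328 known miRNAs. MiR-219-5p, its 5p partner, had 1609 and 2712 counts, or 222 CPM (211 to 233) and 310.4 CPM (299 to 322). In the control library the intervals of miR-219-5p overlapped those of its neighbours in the order, miR-664-2-5p and miR-21-5p.

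MiR-338-3p had 320 counts after SE and 368 in controls, levels of 44.2 CPM (39.5 to 49.3) and 42.1 CPM (37.9 to 46.7). MiR-338-5p had 61 and 121 counts, or 8.42 CPM (6.44 to 10.8) and 13.8 CPM (11.5 to 16.5). MiR-219-1-3p was the rarest, with 41 and 22 counts, or 5.66 CPM (4.06 to 7.68) and 2.52 CPM (1.58 to 3.81). The order of the members was the same in both libraries. The intervals of neighbouring members did not overlap, except for miR-338-5p and miR-219-1-3p in the Experimental group. MiR-219-2-3p alone made up 82.2% of the counts of the 5 members after SE (81.5 to 82.9) and 77.0% in controls (76.3 to 77.7).

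**Figure D1:**
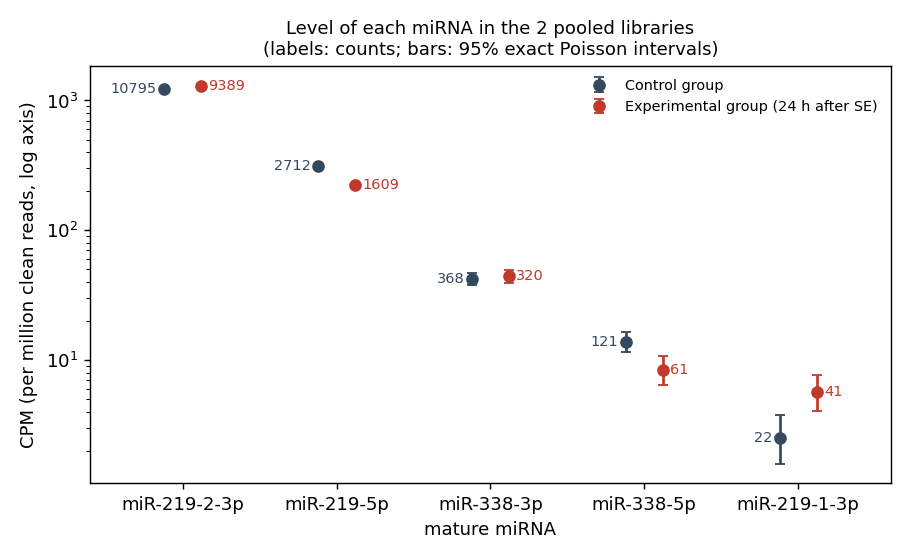
Level of each member in CPM on a log axis, for the Control group (dark) and the Experimental group (red), 1 pooled library each, with the count printed beside each point and 95% exact Poisson intervals as bars. With this scaling the points of miR-219-2-3p and miR-338-3p lie at nearly the same height in both libraries (their order turns with TMM), those of both 5p arms lie lower in the Experimental group, and that of miR-219-1-3p rises from 2.52 to 5.66 CPM.

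Between the libraries the 3p and the 5p arms did not move alike. MiR-219-2-3p was 1.05-fold as high in the Experimental as in the Control library (95% CI 1.02 to 1.08; log2 ratio 0.07; two-sided Fisher's exact test, p = 0.000650). MiR-338-3p was likewise 1.05-fold as high (0.900 to 1.22; log2 ratio 0.07; Fisher's exact test, p = 0.540). These small ratios have no certain direction, since the log2 ratios of miR-219-2-3p and miR-338-3p turn to -0.11 with edgeR's TMM, -0.021 with DESeq2's size factors and -0.20 without scaling. With TMM and without scaling, miR-219-2-3p was lower with a Fisher's exact p under 0.01. TMM shifts every log2 ratio by -0.18 and the absence of scaling by -0.27. The median log2 ratio of the 285 miRNAs that reached 30 counts in either library was 0.10, so that both 3p arms lay 0.03 below this median under any of these scalings.

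MiR-219-5p was lower in the Experimental library, with a log2 ratio of -0.48 (95% CI -0.57 to -0.39; Fisher's exact test, p = 5.87e-27), a decrease of the CPM to 0.716-fold. MiR-338-5p was lower as well, with a log2 ratio of -0.72 (CI -1.19 to -0.26; Fisher's exact test, p = 0.00133), or 0.608-fold. Relative to the median of the table these were log2 differences of -0.58 and -0.82. Of the 285 miRNAs, 29 had a lower ratio than miR-219-5p and 12 had a lower ratio than miR-338-5p. With the same scaling miR-219-2-3p and miR-338-3p each had a log2 ratio of 0.07, and why the arms differed was not tested. In these libraries of whole tissue, fewer cells of a type and less RNA per cell cannot be told apart.

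MiR-219-1-3p was higher in the Experimental library, 2.25-fold (95% CI 1.31 to 3.96; log2 ratio 1.17, CI 0.39 to 1.99; Fisher's exact test, p = 0.00214). It reached 30 counts in the Experimental library only, and thus entered the comparison through the library in which it is high. With TMM its log2 ratio was 0.99 (Fisher's exact test, p = 0.0111) and without scaling 0.90 (p = 0.0226), so that it no longer passed a p of 0.01.

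A log2 ratio above 1 was reached by 1 of the 5 members, miR-219-1-3p, and by 10.2% of the 285 miRNAs. A log2 ratio below -1 was reached by 0 of the 5 members and by 2.11% of the 285. MiR-219-1-3p, counted here and among the higher members below, entered the comparison only through the library in which it is high. With a Fisher's exact p under 0.01, 2 members were higher and 2 were lower, beside 35.8% higher and 20.4% lower in the table. This became 0 higher and 3 lower with TMM or without scaling, and 1 higher and 2 lower with DESeq2's size factors, the sum of the table or that of known miRNAs. Higher calls made up 63.8% of all such calls, but 44.3% with TMM, 54.4% with DESeq2's size factors and 35.6% without scaling. With the Benjamini-Hochberg adjustment over all 390 miRNAs, the same 4 members passed 0.01. Where an assumed coefficient of variation between samples of 0.2 was added in edgeR's exact test, none of the 5 passed 0.01. The lowest p was then 0.0459, for miR-219-1-3p, which alone lay under 0.05.

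**Figure D2:**
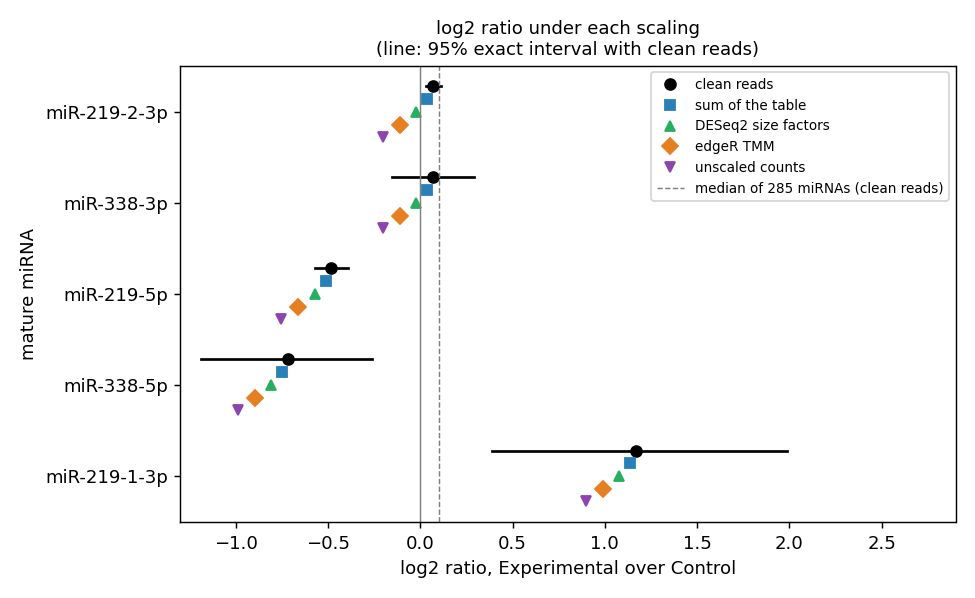
Log2 ratio of the Experimental over the Control library for each member under 5 scalings, with the 95% exact interval of the scaling by clean reads as a line and the median of 285 miRNAs, 0.10, as a dashed line. The 3p arms miR-219-2-3p and miR-338-3p fall on either side of 0 depending on the scaling, while both 5p arms lie below 0 and miR-219-1-3p lies above 0 under all 5.

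Ratios within a library do not depend on the scaling, and all 10 pairs of members were compared in this way. MiR-219-2-3p outnumbered miR-338-3p 29.3 to 1 in each library. The log2 change of this ratio was 0.00031 (95% CI -0.22 to 0.22; Fisher's exact test, p = 1), so that a divergence of these 3p arms beyond 0.22 in either direction lay outside this interval. MiR-219-5p outnumbered miR-338-5p 26.4 to 1 in the Experimental and 22.4 to 1 in the Control library, a log2 change of 0.23 (CI -0.23 to 0.71; Fisher's exact test, p = 0.347) that was not detectable at this depth.

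Within both families the arms moved apart. There were 5.84 counts of miR-219-2-3p for each count of miR-219-5p in the Experimental library and 3.98 in the Control library, a log2 shift toward 3p of 0.55 (CI 0.45 to 0.65; Fisher's exact test, p = 4.56e-29, adjusted over the 10 pairs 4.56e-28). For miR-338 there were 5.25 counts of the 3p arm for each of the 5p arm in the Experimental library and 3.04 in the Control library, a shift of 0.79 (CI 0.28 to 1.31; Fisher's exact test, p = 0.00184, adjusted 0.00307). The 5p arm made up 14.6% of the miR-219 counts in the Experimental group (13.9 to 15.2) and 20.0% in the Control group (19.4 to 20.7). Of the miR-338 counts it made up 16.0% (12.5 to 20.1) and 24.7% (21.0 to 28.8). In each family the 5p arm, the rarer of the pair, thus had a lower share after SE.

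The 3p arm of miR-338 also diverged from the 5p arm of miR-219, by 0.55 (CI 0.31 to 0.79; Fisher's exact test, p = 4.17e-06, adjusted 2.08e-05). MiR-219-2-3p diverged from miR-338-5p by 0.79 (CI 0.33 to 1.26; Fisher's exact test, p = 0.000433, adjusted 0.000865). In all, 8 of the 10 pairs had an adjusted p under 0.01, and the other 2 were miR-219-2-3p with miR-338-3p and miR-219-5p with miR-338-5p. Every pair with miR-219-1-3p, which reached 30 counts only where it is high, is among the 8. The 10 pairs are built from 5 members and are not independent. Such calls were common, since 31 of the 67 miRNAs compared by arm below had an unadjusted Fisher's exact p under 0.01 in either direction.

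To place these shifts, the 3p to 5p ratio was compared for every known miRNA with both arms counted, with copies of an arm summed, at least 30 counts in either library for each arm and no arm at 0. This gave 67 miRNAs. With its 3p copies summed, miR-219 shifted by 0.56 (CI 0.46 to 0.65). MiR-338 had the 7th and miR-219 the 12th largest shift toward 3p of the 67. A shift toward 3p with a Fisher's exact p under 0.01 was found for miR-219 and miR-338, and for 17.9% of all 67. Against these 12 there were 19 of the 67 with a shift toward 5p at this p. The median shift was -0.13 (quartiles -0.62 and 0.27), so miR-219 and miR-338 went against the middle of the table. They were among 28 of the 67 that shifted toward 3p. For the 36 with at least 100 counts in either library for each arm, the median was closer to none, at -0.031 (quartiles -0.57 and 0.24). Toward the more abundant arm, as in miR-219 and miR-338, 32 of the 67 shifted, with a median of -0.0021. Among known miRNAs that reached 30 counts the median log2 ratio was 0.02 for 121 3p arms and 0.17 for 128 5p arms.

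**Figure D3:**
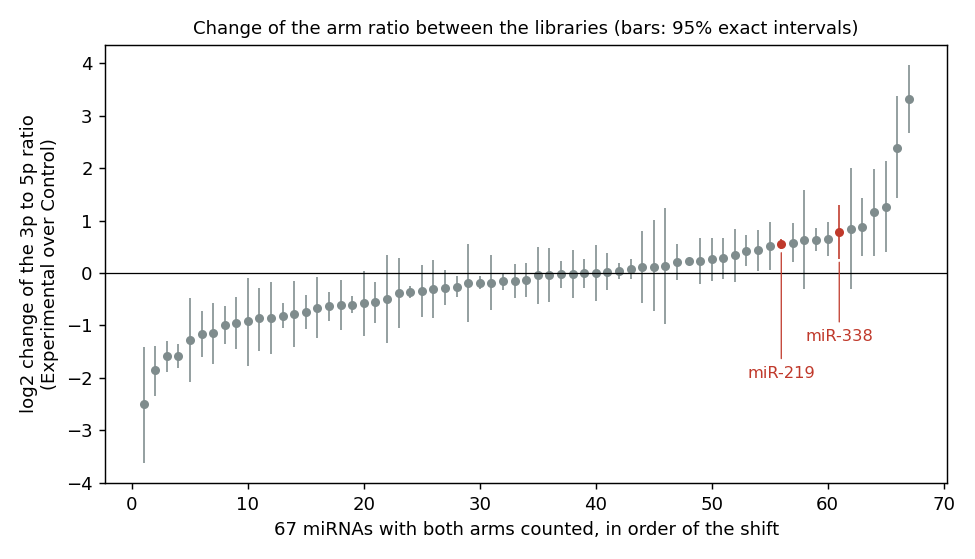
Log2 change of the 3p to 5p ratio between the libraries (Experimental over Control) for 67 miRNAs in order of their shift, with 95% exact intervals as bars. MiR-219 and miR-338 (red) lie among the upper shifts, at 0.56 and 0.79, with intervals above 0, while 39 of the 67 points lie below 0.

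The copies of miR-219 were compared through their 3p arms. MiR-219-1-3p made up 0.435% of the miR-219 3p counts in the Experimental group (95% CI 0.312 to 0.589) and 0.203% in the Control group (0.128 to 0.308), a log2 change of its ratio to miR-219-2-3p of 1.10 (CI 0.32 to 1.92; Fisher's exact test, p = 0.00347, adjusted 0.00495). Against miR-338-3p the change was the same size, 1.10 (CI 0.28 to 1.95). The rarer copy thus remained under 1% of the 3p counts in both libraries, and it rests on 22 counts in the Control group.

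Summed over the 5 members, counts were 11420 after SE and 14018 in controls, levels of 1577 CPM and 1604 CPM. Their log2 ratio was -0.025 (95% CI -0.061 to 0.011; Fisher's exact test, p = 0.171). Under each of the 5 other scalings the sum was lower with a Fisher's exact p under 0.01, at -0.056 with the sum of the table, -0.054 with that of known miRNAs, -0.12 with DESeq2's size factors, -0.20 with TMM and -0.30 without scaling. MiR-219-2-3p held most of the sum. Without it, with clean reads, 2031 and 3223 counts gave -0.40 on this scale (CI -0.48 to -0.31; Fisher's exact test, p = 1.72e-22). The 2 5p arms together had 1670 and 2833 counts, or -0.49 on this scale (CI -0.58 to -0.40), and the 3 3p arms had 9750 and 11185 counts, or 0.07 (CI 0.033 to 0.112).

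Among known miRNAs with a control level within 4-fold of a member, those with the nearest log2 ratio were named. Likeness here is the difference in a single log2 ratio between 2 libraries. For miR-219-2-3p they were miR-433-3p (log2 ratio 0.07), let-7i-5p (0.06) and miR-29b-3p (0.08). MiR-338-3p was nearest to miR-410-3p (0.07), miR-344a-3p (0.08) and miR-132-5p (0.06). For miR-219-5p they were miR-322-3p (-0.49), miR-499-5p (-0.46) and miR-152-3p (-0.51), and for miR-338-5p miR-301a-5p (-0.71), miR-187-5p (-0.74) and miR-181a-1-3p (-0.75). MiR-219-1-3p was nearest to miR-770-5p (1.16), miR-1912-3p (1.16) and miR-125b-1-3p (1.21).

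The ratios of neighbours in the order of control levels are given as a description, since their difference from the member's ratio was not tested. MiR-125b-5p, directly above miR-219-2-3p with 13605 counts in the Control group, had 8966 after SE and a log2 ratio of -0.33, and miR-129-2-3p, directly below, had 5709 and 10647 counts, for a log2 ratio of -0.63. MiR-219-5p stood between miR-664-2-5p (log2 ratio 0.41) and miR-21-5p (0.33). MiR-338-3p stood between miR-187-3p (-0.46) and miR-135a-3p (-0.14), and miR-338-5p between miR-7a-1-3p (-0.43) and miR-539-5p (1.09). MiR-219-1-3p had the same 22 control counts as miR-106b-3p (log2 ratio 0.86) and miR-672-3p (-0.38).

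Other miRNAs described in the oligodendrocyte lineage had ratios on both sides of 0, from -1.17 to 1.24, as the members had. Of 12 on the list 10 were analysed and 9 had at least 30 counts, of which 5 were higher and 2 lower with a Fisher's exact p under 0.01, beside 35.8% higher and 20.4% lower in the table. The median log2 ratio of the 9 was 0.51, beside 0.10 in the table and 0.07 over the 5 members. MiR-138-5p, which is induced with miR-219 and miR-338 as oligodendrocytes mature and is also abundant in neurons, rose from 6038 control counts to 6906, by 0.46 on the log2 scale (CI 0.41 to 0.51). MiR-7a-5p, which promotes oligodendrocyte fate, had 703 and 543 counts, for a log2 ratio between the libraries of 0.64 (CI 0.48 to 0.81). MiR-23a-3p, a regulator of lamin B1 in these cells, had 1293 and 1864 counts, for a log2 ratio between the libraries of -0.26 (CI -0.36 to -0.15). MiR-125a-3p, which restrains precursor maturation, had 34 and 92 counts, for a log2 ratio between the libraries of -1.17 (CI -1.78 to -0.58). MiR-212-3p, which also responds to neuronal activity, had 330 and 168 counts, for a log2 ratio between the libraries of 1.24 (CI 0.97 to 1.52). Of the miR-17-92 members on the list, miR-92a-3p had a log2 ratio of 0.84 (CI 0.58 to 1.10) and miR-17-5p of 0.58 (CI -0.11 to 1.29), the latter without passing the test. MiR-19b-3p stayed under 30 counts, with 15 and 9, and its log2 ratio of 1.01 (CI -0.28 to 2.38) did not pass either.

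Lists for other cell types were read beside the members. All 14 neuronal miRNAs reached 30 counts, with 4 higher and 5 lower at a Fisher's exact p under 0.01 and a median of -0.05. These counts too are read beside the 35.8% higher and 20.4% lower among all 285. MiR-124-3p rose to 50380 counts from 28500 (log2 ratio 1.09), whereas miR-128-3p fell to 214423 from 354286 (log2 ratio -0.45). The 5 astrocyte miRNAs had a median of 0.18, with 4 higher and 1 lower, and the 3 analysed of 6 microglia and leukocyte miRNAs had a median of -0.25, with none past the test. Of 3 erythrocyte miRNAs 2 were analysed, miR-451-5p with 196 and 100 counts (log2 ratio 1.24) and miR-144-3p with 12 and 14 counts. The rats had been perfused with saline. Summed, the erythrocyte list stood at 28.7 CPM in the Experimental and 13.0 CPM in the Control library. Both choroid plexus miRNAs analysed here, miR-204-5p and miR-448-3p, were higher (log2 ratios 0.36 and 0.35), and their sum stood at 614 and 481 CPM. None of the analysed markers was at 0. The endothelial miRNAs of the list were not analysed here. The part of blood and choroid plexus in the members' values was not tested.

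Set against the sums of these lists, the members' sum was higher against some and lower against others. It rose by 0.22 on the log2 scale against the neuronal sum (CI 0.19 to 0.26; Fisher's exact test, p = 2.13e-33) and by 0.08 against the astrocyte sum (CI 0.040 to 0.115; Fisher's exact test, p = 4.37e-05). MiR-128-3p held 73.7% of the neuronal counts in the Experimental and 84.9% in the Control library, and miR-29a-3p held 81.1% and 88.4% of the astrocyte counts. Without them both values turned, to -0.58 (CI -0.62 to -0.54) and -0.63 (CI -0.67 to -0.58). MiR-138-5p held 68.8% of the counts of the other oligodendrocyte-lineage list in the Experimental and 64.8% in the Control library. This list holds miRNAs of unlike roles, as named above, and its relation to oligodendrocyte content was not tested. Against its sum the members' sum was lower, with a log2 value of -0.40 (CI -0.46 to -0.35), or -0.23 without miR-138-5p (CI -0.30 to -0.15). Against the choroid plexus sum it was lower as well, at -0.38 (CI -0.45 to -0.31; Fisher's exact test, p = 1.13e-25), and at -0.38 without miR-448-3p. Against the erythrocyte sum the value was -1.16 (CI -1.51 to -0.82; Fisher's exact test, p = 2.25e-12), but -0.073 without miR-451-5p (p = 1). Against the microglia and leukocyte sum it was 0.09 (CI -0.12 to 0.30; Fisher's exact test, p = 0.419).

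**Figure D4:**
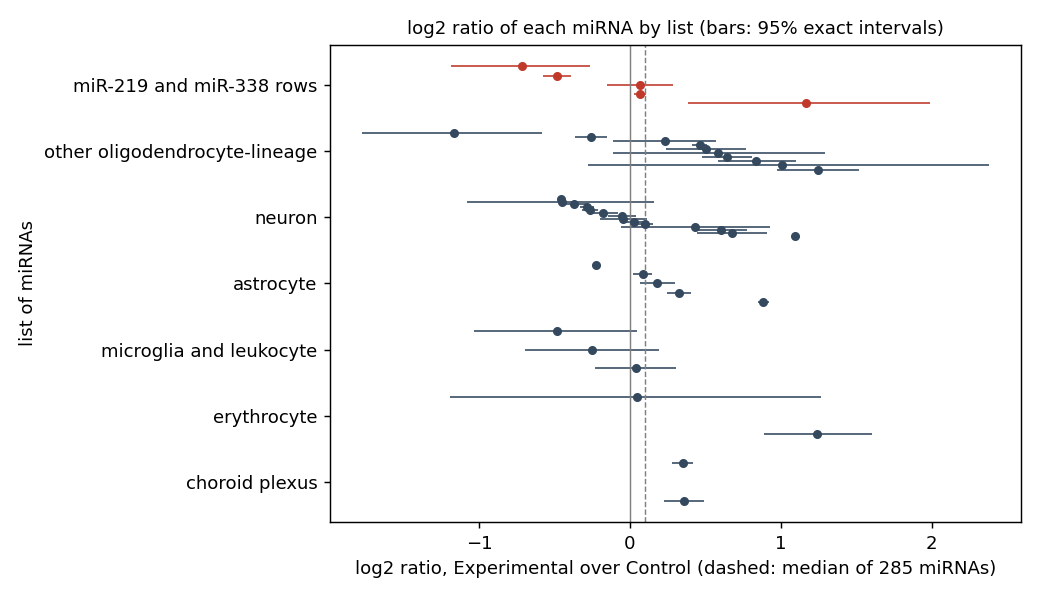
Log2 ratio of the Experimental over the Control library for each miRNA, by list, with 95% exact intervals as bars and the median of 285 miRNAs, 0.10, as a dashed line. The members (red) spread from -0.72 to 1.17. Most other oligodendrocyte-lineage miRNAs lie to the right of the dashed line, and the median of the 9 with at least 30 counts was 0.51.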

How the data were processed

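The deposited table gives unscaled read counts per mature miRNA for both pooled libraries, as whole numbers with unequal sums, although its header calls them normalized. Reads of low quality, under 18 nt or seen once had been discarded. The submitters' processing notes name the genome build rn5, and the aligner, the counter and the miRBase release are not given in the sources used here. How reads shared by similar miRNAs were counted is not stated either. Columns with the authors' p-values were not used.

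Counts were divided by the clean reads that the study's text gives for each library, and a count under 3 was set to 3. Each miRNA was compared by a two-sided Fisher's exact test against the remaining clean reads, at p under 0.01, with Clopper-Pearson intervals. Levels have Poisson intervals, and ratios within a library have conditional exact intervals. With 1 library per group, no model of the spread could be fitted. PCR reads are not independent molecules. The statistics were checked on simulated Poisson counts, for single miRNAs with at least 100 counts. These had no spread between samples, so the check covers counting error only.

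The members and lists were chosen with earlier results of these data known. Named miRNAs were the members, the lists, the neighbours of each member in the control order, the 3 with the nearest ratio among those within 4-fold, and any sharing a seed. Alternatives were 5 other scalings, a pseudocount of 1, a log2 ratio beyond 2, a minimum of 10 or of 100 counts or none, adjustment, and assumed coefficients of variation of 0.2 and 0.4 in edgeR's exact test. Leaving out the most abundant miRNA of a list, summing the miR-219 3p copies and a minimum of 100 for arm pairs were added after the data were seen. Software was Python 3.11.15, scipy 1.17.1, R 4.3.3, edgeR 4.0.16 and DESeq2 1.42.0.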

Additional observations from a re-analysis of the deposited data

How the results depend on the processing

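No paired analysis was possible because the RNA of each group was pooled into 1 library, and no replicate could be left out. Both 5p arms remained lower with a Fisher's exact p under 0.01 under all 5 other scalings and with the Benjamini-Hochberg adjustment. A pseudocount of 1 was applied to the log2 ratios only and not to the test. With it the log2 ratios were -0.48 for miR-219-5p and -0.71 for miR-338-5p. The shifts toward 3p were then 0.55 for miR-219 and 0.78 for miR-338. A coefficient of variation of 0.2 or 0.4 was assumed in edgeR's exact test only, and the log2 ratios were not estimated anew. With either value, none of miR-219-1-3p (1.17), miR-219-2-3p (0.070), miR-219-5p (-0.48) and miR-338-5p (-0.72) passed p of 0.01.

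MiR-219-2-3p did not pass with the sum of the table (0.038) or of known miRNAs (0.040), and its sign turned with DESeq2's size factors (-0.021), TMM (-0.11) and unscaled counts (-0.20). MiR-219-1-3p did not pass with TMM (0.99) or unscaled (0.90). The summed members passed as lower with the sum of the table (-0.056), of known miRNAs (-0.054), DESeq2's size factors (-0.12), TMM (-0.20), unscaled counts (-0.30) and without miR-219-2-3p (-0.40).

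The number of members above a log2 ratio of 1 became 0 with unscaled counts, TMM, at least 100 counts or a log2 ratio beyond 2. Of all miRNAs, 29 were higher and 6 lower. These became 16 and 12 unscaled, 47 and 21 with at least 10 counts, 53 and 25 with no minimum, 18 and 2 with at least 100 counts, and 9 and 3 with a log2 ratio beyond 2. With at least 100 counts in either library for each arm, 36 arm pairs were compared instead of 67. Of these 36, 7 shifted toward 3p and 12 toward 5p with a Fisher's exact p under 0.01, beside 12 and 19 of the 67.

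Without its most abundant miRNA the neuronal list turned the comparison with the summed members to -0.58 and the astrocyte list to -0.63, and the erythrocyte list no longer passed (-0.073, against -1.16 with miR-451-5p). The erythrocyte median, relative to the table, was 1.14 and rested on miR-451-5p alone. With no minimum it became 0.55, since miR-144-3p with 12 and 14 counts was then included. Depth limits miR-219-1-3p and miR-338-5p most, with 22 and 61 counts in their lower library.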
